A study of Mus musculus with 12 samples.

Results

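Transcript levels of 10 imprinted genes were followed across 12 poly(A) RNA libraries from mouse embryonic stem cells of Dicer knockout, Dicer-complemented and wild type lines. The genes, H19, Igf2, Igf2r, Peg3, Peg10, Mest, Snrpn, Plagl1, Cdkn1c and Grb10, were taken by symbol from the 47643 genes of the count table. All 10 passed the filter on low counts, which kept 14629 genes for testing.

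Imprinted genes are transcribed from a single parental allele, and DNA methylation laid down in the germ line marks the parental alleles differently. H19 and Igf2 are the textbook pair: they share enhancers and a control region bound by CTCF, and H19, a non-coding RNA, is made from the maternal allele, while the growth factor gene Igf2 is expressed from the paternal allele. Embryonic stem cells are known to vary in their imprints between clones and cultures, and Dicer is the enzyme that cuts microRNA and siRNA precursors. The counts add up both alleles, so they give the amount of RNA and not its parental origin.

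The E14 cells, of 129/Ola strain background and labelled by their blastocyst origin, grew on gelatin in medium with serum and LIF. Puromycin was kept on all lines, WT included. There were 6 groups of 2 libraries each. The group KO is a Dicer knockout. Of the lines in which Dicer was complemented, 41585 is labelled as processing neither miRNAs nor siRNAs, 41589 as lacking siRNA processing, and 41584 as similar to WT. The group SOM carries no further description, and the abbreviation is not explained. The last group, WT, is the wild type control line. Nothing states that a group's libraries are separate cultures, so the p-values below measure only the spread between libraries, and each group stands for a single line.

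The libraries held 5348401 to 10428509 counted reads. Dicer1 itself had 28.5 and 44.0 CPM (reads of a gene relative to all counted reads of the library, after TMM scaling) in KO libraries, 27.7 to 54.9 CPM in the 41585, 41589 and 41584 libraries, 105 and 215 CPM in SOM libraries, and 197 and 213 CPM in WT libraries. The 10 markers of embryonic stem cells were detected in every library and summed to 6049 to 7862 CPM, although single markers differed: Klf4 was lower in KO than in WT (log2 fold −2.56, edgeR adjusted p = 0.000285) and in 41585 than in 41584 (−2.04, adjusted p = 0.00106), where Fgf4 was higher (1.24, adjusted p = 0.0123). Krt8, Krt18, Elf5 and Tead4, of 6 tested trophectoderm markers, were higher in KO than in WT at an edgeR adjusted p under 0.05, while Eomes, also on that list, had a log2 fold of −1.26 (adjusted p = 0.0587). The trophectoderm list summed to 260 and 256 CPM in KO libraries, 337 and 112 CPM in 41585 libraries, and 33.5 to 60.3 CPM in the other 8. Its defining gene Cdx2 lay between 0 and 0.244 CPM throughout. Of 7 tested primitive endoderm markers, 5 were lower in 41585 than in 41584 and 1 in KO than in WT. That list summed to 45.4 and 58.9 CPM in KO libraries, 59.7 and 60.6 CPM in 41585 libraries, 263 and 145 CPM in 41584 libraries and 91.8 and 83.4 CPM in WT libraries. On that list Gata6 and Sox17 were both at 0 in KO replicate 1 and 41585 replicate 2, but Gata4 was not. Gata4 had 5.60 and 3.84 CPM in KO libraries and 3.70 and 3.17 CPM in WT libraries. In 41585 libraries it had 4.20 and 7.32 CPM, against 10.8 and 1.40 CPM in 41584 libraries. The neuroectoderm list, of which Nes and Pax6 among 4 tested markers were higher in both KO against WT and 41585 against 41584, summed to 57.1 and 65.8 CPM in KO libraries, 93.6 and 67.3 CPM in 41585 libraries and 25.8 to 46.2 CPM in the other 8. Sox1, another of the 4, had log2 folds of −2.14 (edgeR adjusted p = 0.0508) and −1.47 (0.151) in these comparisons.

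On the GRCm38 build and in the GENCODE M21 annotation, 5 of the genes lie on chromosome 7: H19 (chr7:142575529-142578143, minus strand), Igf2 (chr7:142650766-142666816, minus), Cdkn1c (chr7:143458339-143461050, minus), Snrpn (chr7:59982495-60140219, minus) and Peg3 (chr7:6703892-6730431, minus). The others are Peg10 (chr6:4747306-4760517, plus), Mest (chr6:30723547-30748465, plus), Plagl1 (chr10:13060504-13131694, plus), Grb10 (chr11:11930508-12038683, minus) and Igf2r (chr17:12682406-12769664, minus). Some of their exons overlap other annotated genes. Mest shares 912 exon bases with Copg2 on the opposite strand, and Igf2 shares 98 with the antisense gene Igf2os, which had 30 counts over the 12 libraries. Snrpn shares 589 bases with Gm38393 on its own strand, and Igf2 shares 3596 with Gm49394, which was not counted separately. The libraries were reverse-stranded, but no source used here gives the strand setting of the counting, so the Mest and Copg2 counts in particular are uncertain.

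Members of the set host microRNAs, the class of RNA that Dicer makes, and their mature forms are shown because they tie these loci to the enzyme under study. In the sequences below, from RefSeq for GRCm38.p6, capitals mark the seed, bases 2 to 8. The miR-675 hairpin lies in an exon of H19 (5p arm at chr7:142577112-142577133, minus strand), the miR-483 hairpin in an intron of Igf2 (5p arm at chr7:142654968-142654989, minus) and the miR-335 hairpin in an intron of Mest (5p arm at chr6:30741314-30741336, plus).
mmu-miR-675-5p: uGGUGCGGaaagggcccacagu
mmu-miR-675-3p: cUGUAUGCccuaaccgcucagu
mmu-miR-483-5p: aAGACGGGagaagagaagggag
mmu-miR-483-3p: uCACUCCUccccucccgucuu
mmu-miR-335-5p: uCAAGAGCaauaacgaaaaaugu
mmu-miR-335-3p: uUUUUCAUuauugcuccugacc

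No seed is shared among these 6. The genes Mir675 and Mir483 had 0 counts over the 12 libraries, and Mir335 had 1. Mir675 shares 84 exon bases with H19 on the same strand, and how reads there were assigned is not given. Whatever these counts, poly(A) libraries do not measure mature microRNAs. What follows for H19, Igf2 and Mest therefore concerns their long transcripts.

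The 3′ UTRs of the 9 members that have one were also read for 7-base matches to the seeds of the stem cell microRNAs of the miR-290 and miR-302 families (AGCACTT), of miR-17 (GCACTTT) and of let-7 (CTACCTC), on the transcript strand. Peg10 held the AGCACTT match, present in 14.9% of 20659 genes with a UTR. Igf2r and Peg3 each held CTACCTC, present in 9.18%, and no member held GCACTTT, present in 12%. The UTRs read were 5166 bases long in Peg10, 1304 in Igf2r and 3614 in Peg3, and these shares were not matched for length. The 3 matches are shown in capitals with their flanks, because Peg10 and Igf2r were called between KO and WT. The calls went opposite ways, Peg10 higher and Igf2r lower in KO, and Peg3 was not called there. A match is a description of the letters and not a shown site, and any part of these microRNAs in the differences was not tested. They lie at chr6:4759051-4759079 (plus strand) in Peg10, chr17:12683026-12683054 (minus) in Igf2r and chr7:6706873-6706901 (minus) in Peg3.
mmu-miR-294-3p: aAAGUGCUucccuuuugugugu
Peg10 3′ UTR: tcttttattttAGCACTTccaacaaaaat
mmu-let-7a-5p: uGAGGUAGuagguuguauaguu
Igf2r 3′ UTR: tgctccgtgccCTACCTCatctctgtagt
Peg3 3′ UTR: tgttctgtcccCTACCTCttagatagtcc

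Per kilobase of exon, Peg10 was the most abundant of the 10 transcripts, with a median over the 12 libraries of 71.1 CPM per kb. Grb10 (25.8), Snrpn (24.0), Mest (17.6) and Igf2r (11.7) followed on the same scale. Cdkn1c (4.16) and Peg3 (4.13) were lower, and H19 (1.94), Igf2 (0.865) and Plagl1 (0.178 CPM per kb) were the least abundant. The genes at the low end varied most between libraries: the highest library exceeded the lowest by 107-fold for H19, 95.4-fold for Igf2 and 41.4-fold for Plagl1, but by 2.39-fold for Snrpn and 3.96-fold for Peg3.

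**Figure D1:**
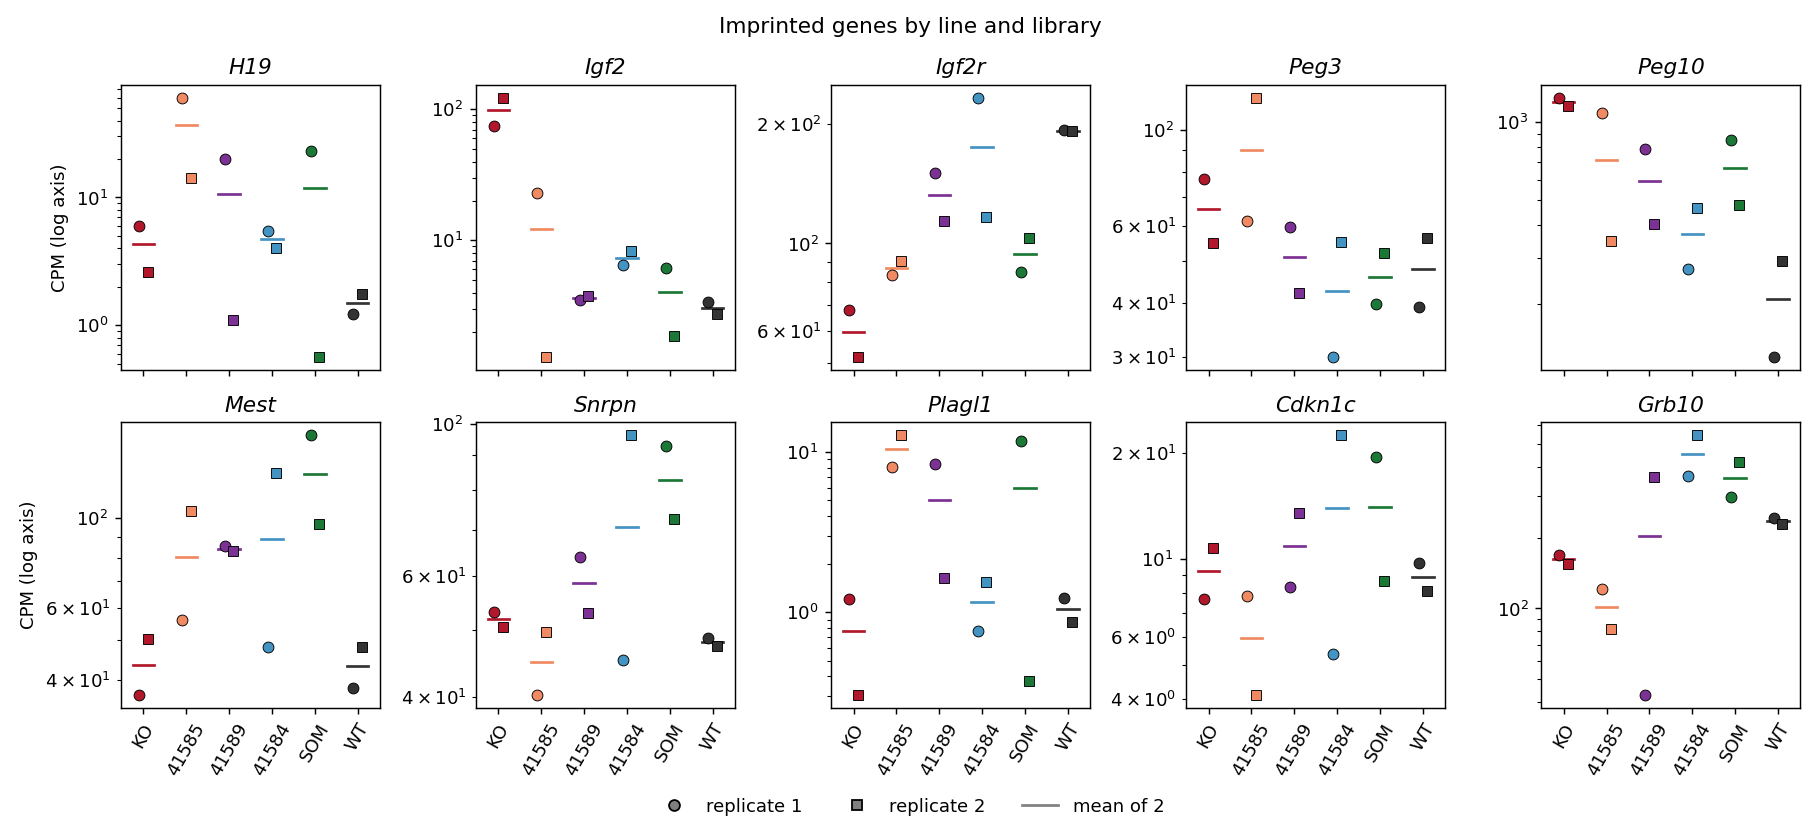
Level of each gene in CPM (log axis, a separate scale for each gene) in the 6 lines, with circles for replicate 1, squares for replicate 2 and a bar for their mean. Igf2 stands at 75.4 and 122 CPM in KO and at 23.0 CPM or less elsewhere, while the 2 libraries of a line lie far apart for H19 and Plagl1.

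The first comparison asked what loss of Dicer did to these genes. Igf2 and Peg10 were higher in KO than in WT and Igf2r, the receptor that takes up IGF2 for degradation, was lower. So 3 of 10 members were called by edgeR's quasi-likelihood test at a Benjamini-Hochberg adjusted p under 0.05, 2 higher and 1 lower, in a comparison where 13.2% of all tested genes were called (7.29% higher and 5.9% lower). The libraries of the lines did not overlap for 6 members, which was true of 71.5% of all tested genes. In bulk RNA, fewer cells expressing a gene and less RNA per cell cannot be told apart.

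Igf2 had 75.4 and 122 CPM in KO libraries, against 3.40 and 2.73 CPM in WT libraries. The KO libraries stood above every other library of the study, with no overlap. The log2 fold was 5.01 ± 0.92 (SE, n = 2 per group, edgeR adjusted p = 0.00606). The call was lost without WT replicate 1 (adjusted p = 0.0731) or without WT replicate 2 (0.0556), when the fold was 5.17 or 4.86. By mean level the lines ran KO, 41585, 41584, SOM, 41589, WT. The libraries of neighbours in that order overlapped between 41585 and 41584 and between SOM and 41589.

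Peg10, a gene derived from a retrotransposon and needed for placental development, had 1237 and 1149 CPM in KO libraries, against 124 and 291 CPM in WT libraries. The ranges did not overlap, although the WT libraries differed 2.34-fold between themselves. The log2 fold was 2.52 ± 0.55 (edgeR adjusted p = 0.0134). Without KO replicate 1 or WT replicate 1 the adjusted p was 0.0788 or 0.141, and without WT replicate 1 the fold was 2.03. By mean level the lines ran KO, 41585, SOM, 41589, 41584, WT, and KO and 41585 were the only neighbours whose libraries did not overlap.

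Igf2r had 67.9 and 51.6 CPM in KO libraries, against 193 and 192 CPM in WT libraries. The 2 WT libraries were nearly equal, and both KO libraries lay far below them and below all other libraries. The log2 fold was −1.69 ± 0.31 (edgeR adjusted p = 0.00566), a call lost without KO replicate 2 (adjusted p = 0.07). From highest to lowest the lines ran WT, 41584, 41589, SOM, 41585, KO, with no overlap between 41589 and SOM or between 41585 and KO. Airn, the antisense RNA that silences Igf2r on the paternal allele, had 16 counts over the 12 libraries and was not tested.

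The remaining 7 members were not called between KO and WT. H19 had 5.97 and 2.61 CPM in KO libraries and 1.23 and 1.75 CPM in WT libraries, a log2 fold of 1.51 ± 1.38 (edgeR adjusted p = 0.492). Its ranges did not overlap, but the WT libraries rested on 8 and 16 reads. Grb10, an adaptor that restrains growth factor receptor signalling, had 169 and 154 CPM in KO libraries and 243 and 227 CPM in WT libraries (−0.54 ± 0.62, adjusted p = 0.589). The folds of Peg3, Mest, Snrpn, Plagl1 and Cdkn1c lay between −0.39 and 0.46, with standard errors from 0.31 to 1.27.

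**Figure D2:**
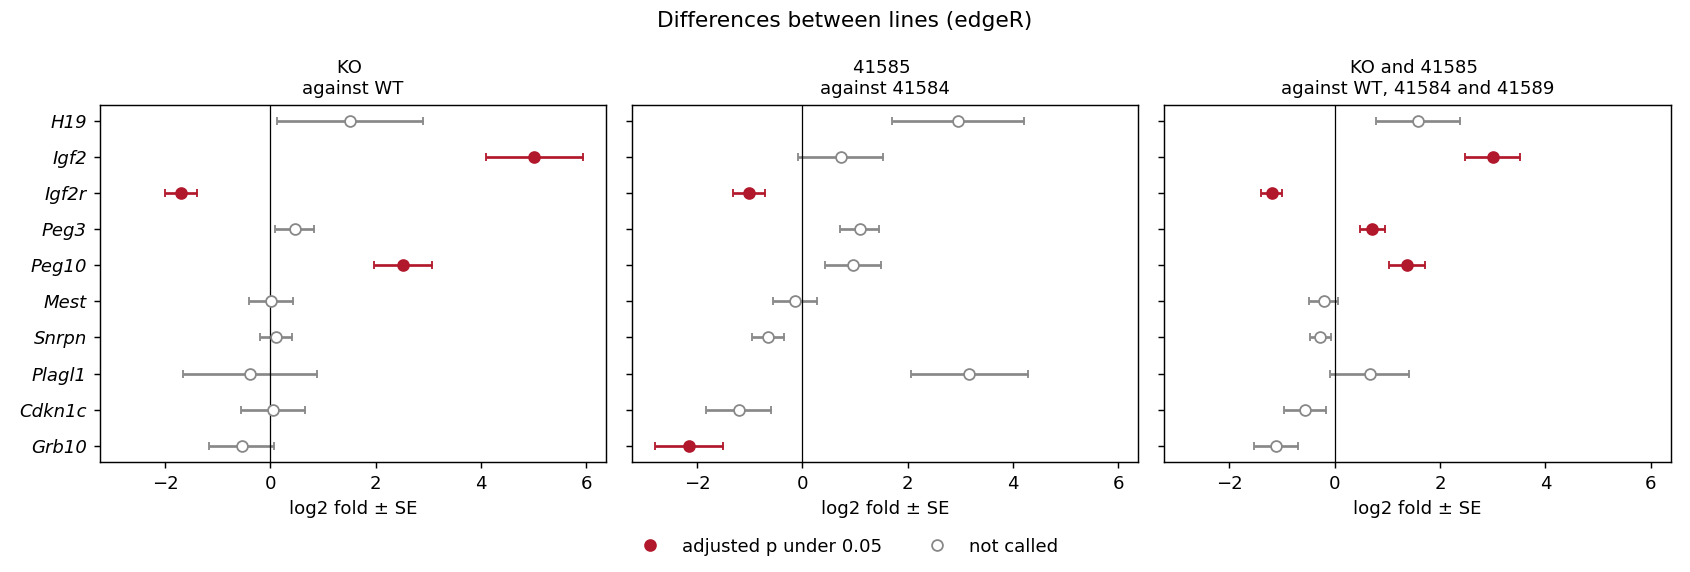
Log2 fold of each gene with its standard error in KO against WT, 41585 against 41584, and KO and 41585 against WT, 41584 and 41589, where filled points have an edgeR adjusted p under 0.05. Igf2r lies left of 0 and filled in all 3 panels, Igf2 is filled in 2 of them, and H19 and Plagl1 have the widest errors.

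The second comparison set the line that makes neither miRNAs nor siRNAs, 41585, against the complemented line labelled similar to WT, 41584. Igf2r and Grb10 were lower in 41585. These were 2 of 10 members called by edgeR, where 12.7% of all tested genes were called (7.65% higher and 5.07% lower). DESeq2 called 4 members, with Peg3 and Plagl1 as the others, and 2593 of 14986 genes. No member was called higher by edgeR, while 5 had an unadjusted p under 0.05, as did 32% of all tested genes. The libraries did not overlap for 5 members, H19, Igf2r, Peg3, Plagl1 and Grb10, as for 58.9% of all tested genes. The marker sums given above differed between these lines too, and their part in the members' differences was not tested.

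Igf2r had 83.3 and 90.1 CPM in 41585 libraries, against 233 and 117 CPM in 41584 libraries. Both 41585 libraries were lower, but the 41584 libraries were themselves 2.0-fold apart. The log2 fold was −1.01 ± 0.30 (edgeR adjusted p = 0.045). It was −0.43 without 41584 replicate 1 (adjusted p = 0.278), and the call was also lost without 41585 replicate 1 (0.201), without 41585 replicate 2 (0.137) and with only these groups in the fit (0.123).

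Grb10 had 121 and 81.7 CPM in 41585 libraries, against 364 and 543 CPM in 41584 libraries. No library overlapped, and 41584 was the line with the highest mean of the 6. The log2 fold was −2.16 ± 0.64 (edgeR adjusted p = 0.0452). Leaving out any of the 4 libraries gave an adjusted p between 0.0546 and 0.19. Across lines the order was 41584, SOM, WT, 41589, KO, 41585, in which SOM and WT did not overlap, nor did KO and 41585.

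Igf2, far higher in KO, split in 41585: it had 23.0 and 1.28 CPM there, against 6.51 and 8.23 CPM in 41584 libraries. Replicate 1 of 41585 was above, and replicate 2 below, every other library outside KO. The log2 fold was 0.73 ± 0.81 (edgeR adjusted p = 0.551). The difference between the effects, KO against WT less 41585 against 41584, was 4.28 ± 1.19 for Igf2 (unadjusted p = 0.0032, edgeR adjusted p = 0.999). That test called 0 of 14629 genes, with 419 genes, Igf2 as the only member among them, at an unadjusted p under 0.05, and no other tool was run for it.

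H19 and Plagl1 had the largest log2 folds of this comparison without being called. Plagl1 encodes a zinc finger transcription factor known to act on other imprinted genes. H19 had 60.1 and 14.1 CPM in 41585 libraries and 5.48 and 4.04 CPM in 41584 libraries (2.96 ± 1.26, edgeR adjusted p = 0.127). Plagl1 had 8.06 and 12.7 CPM in 41585 libraries and 0.765 and 1.55 CPM in 41584 libraries (3.17 ± 1.11, adjusted p = 0.0754). The ranges of the lines did not overlap for either gene. Peg3, a zinc finger gene of the paternal allele, had 61.7 and 119 CPM in 41585 libraries and 30.0 and 55.1 CPM in 41584 libraries (1.09 ± 0.37, edgeR adjusted p = 0.0701). The folds of the others were 0.95 ± 0.53 for Peg10, −0.14 ± 0.42 for Mest, −0.65 ± 0.31 for Snrpn and −1.21 ± 0.62 for Cdkn1c, with adjusted p of 0.165 or more.

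Taking KO and 41585 as the lines without miRNA processing and WT, 41584 and 41589 as those with it, 4 of 10 members were called by edgeR, against 33.5% of all tested genes. This comparison uses the libraries of the first and second again, so its values are not separate evidence. Igf2r was the only member whose libraries did not overlap between the sides, as was true of 21.2% of all tested genes: it ran from 51.6 to 90.1 CPM in KO and 41585 libraries and from 114 to 233 CPM in WT, 41584 and 41589 libraries. SOM, whose processing is not described, was on neither side. Its replicate 1 had 84.5 CPM of Igf2r, within the lower range, and its replicate 2 had 103 CPM, between the ranges. The log2 fold of Igf2r was −1.19 ± 0.20 (edgeR adjusted p = 0.000856), and stayed called when any of the 10 libraries was left out.

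Igf2 was higher on the side without miRNA processing, with a log2 fold of 3.0 ± 0.52 (edgeR adjusted p = 0.00106). It was called with any library left out, but without 41585 replicate 1 the fold was 1.39 (adjusted p = 0.0269). Peg10 was higher by 1.37 ± 0.33 (edgeR adjusted p = 0.00781), and by 0.86 without 41585 replicate 1 (0.0639). Peg3 was higher by 0.72 ± 0.24 (edgeR adjusted p = 0.0332); that call was lost without KO replicate 1, 41585 replicate 2, 41589 replicate 2, 41584 replicate 1 or WT replicate 1, with adjusted p up to 0.2. Grb10 had −1.12 ± 0.41 (adjusted p = 0.0525) and was called without 41589 replicate 1 (−1.40, adjusted p = 0.000338). The folds of H19 (1.58 ± 0.79), Plagl1 (0.66 ± 0.75), Mest (−0.21 ± 0.27), Snrpn (−0.27 ± 0.20) and Cdkn1c (−0.57 ± 0.40) were not called, with adjusted p of 0.141 or more.

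Markers of other cell types were called in the same grouping. Of 6 tested trophectoderm markers 4 were higher and Eomes was lower (−0.98, edgeR adjusted p = 0.0126). Of 4 neuroectoderm markers, Nes (1.41) and Pax6 (2.71) were higher and Sox1 lower (−1.51), and 5 of 7 primitive endoderm and both tested mesendoderm markers were lower. Of the 10 embryonic stem cell markers, 3 were higher and 2 lower. The part of these in the members' differences was not tested.

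In the other comparisons edgeR called no gene. For 41589, the line without siRNA processing, against 41584, 0 of 14629 genes were called (0%), 103 genes and no member had an unadjusted p under 0.05, and DESeq2 called 0. Libraries did not overlap for 3 members, Igf2, Plagl1 and Grb10, beside 10.7% of all tested genes. The log2 folds were −1.01 ± 0.85 for Igf2, 2.12 ± 1.11 for Plagl1 and −1.16 ± 0.62 for Grb10. H19 had 1.14 ± 1.22, and Igf2r, Peg3, Peg10, Mest, Snrpn and Cdkn1c lay between −0.40 and 0.68. Without 41589 replicate 2, Grb10 was called by edgeR (−3.41, adjusted p = 0.0276), as its level was 43.1 CPM in 41589 replicate 1 and 362 CPM in 41589 replicate 2, against 364 and 543 CPM in 41584 libraries. For 41584 against WT, again 0% were called, 706 genes had an unadjusted p under 0.05, and DESeq2 called 27 genes and no member. Libraries did not overlap for 4 members, H19, Igf2, Mest and Grb10, beside 30.6% of all tested genes. Mest, whose product is a predicted hydrolase, was the only member among the 706. It had 48.2 and 129 CPM in 41584 libraries and 38.1 and 48.2 CPM in WT libraries (1.04 ± 0.42, edgeR adjusted p = 0.883), and 0.16 without 41584 replicate 2. H19 (1.65 ± 1.38) and Igf2 (1.27 ± 0.88) had the largest folds, and those of Igf2r, Peg3, Peg10, Snrpn, Plagl1, Cdkn1c and Grb10 lay between −0.17 and 0.95.

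For SOM against WT edgeR called 0% of the tested genes, while 3175 had an unadjusted p under 0.05, 6 members among them, and DESeq2 called 662 genes. Libraries did not overlap for 5 members, Igf2r, Peg10, Mest, Snrpn and Grb10, beside 59.8% of all tested genes. The members that DESeq2 called were Mest (adjusted p = 0.0131) and Igf2r (0.0377). Mest had 160.2 and 97.0 CPM in SOM libraries and 38.1 and 48.2 CPM in WT libraries (1.57 ± 0.43, edgeR adjusted p = 0.135). Both SOM libraries were higher than both WT libraries. Igf2r had 84.5 and 103 CPM in SOM libraries and 193 and 192 CPM in WT libraries (−1.04 ± 0.30, edgeR adjusted p = 0.137).

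Peg10 and Snrpn had the same kind of pattern in SOM, without overlap. Peg10 had 850 and 480.4 CPM in SOM libraries and 124 and 291 CPM in WT libraries (1.68 ± 0.54, edgeR adjusted p = 0.15). Snrpn, which encodes a splicing protein, had 92.9 and 72.6 CPM in SOM libraries and 48.8 and 47.5 CPM in WT libraries (0.78 ± 0.31, edgeR adjusted p = 0.183). For H19 and Plagl1 the fold rested on SOM replicate 1. H19 had 23.1 and 0.563 CPM in SOM libraries and 1.23 and 1.75 CPM in WT libraries, and its log2 fold of 2.96 ± 1.37 turned to −1.40 without SOM replicate 1. Plagl1 had 11.6 and 0.375 CPM in SOM libraries and 1.23 and 0.873 CPM in WT libraries, and its fold of 2.52 ± 1.12 turned to −1.43. Igf2, Peg3, Cdkn1c and Grb10 had folds between −0.06 and 0.66 in SOM against WT.

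Differences within lines were as large as those between them for part of the set. Of 60 ratios, 10 genes in 6 lines, 18 exceeded 2-fold between the 2 libraries of a line. The members above 2-fold were 2 of 10 in KO, 3 in 41585, 3 in 41589, 5 in 41584, 4 in SOM and 1 in WT. The share of all tested genes above 2-fold was 7.12% in KO, 11.3% in 41585, 22.8% in 41589, 26.7% in 41584, 13.5% in SOM and 10.4% in WT.

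H19 was more than 2-fold apart in 4 of 6 lines. In SOM, replicate 1 had 41.0 times the H19 level of replicate 2, a ratio resting on 3 reads in replicate 2 with a 95% interval of 13.7 to 202 from counting error. In 41589 the ratio was 18.4 (10.3 to 36.3), in 41585 it was 4.26 (3.46 to 5.28), and in KO it was 2.28 (1.29 to 4.23). Replicate 1 was the higher in each of these 4 lines and in 41584, and replicate 2 in WT. The labels do not say what a replicate number shares across lines. In the SOM line 0.0205% of tested genes were as far apart as H19, and in 41589 0.226%. The 23 tested genes within 1 Mb of H19 had a median log2 ratio of 0.77 in SOM and −0.01 in 41589, beside 5.36 and 4.20 for H19.

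Plagl1, on another chromosome, was also over 2-fold apart in 4 of 6 lines. Its ratio was 31.0 in SOM, with 2 reads in replicate 2 (interval 8.26 to 261), and 5.14 in 41589 (3.05 to 9.11). In KO the ratio of 3.96 had an interval of 0.844 to 37.2, again with 2 reads in replicate 2, and in 41584 the interval of 0.147 to 1.5 for replicate 1 over replicate 2 also contained equality. The 4 libraries with the most H19 were the 4 with the most Plagl1. They were both 41585 libraries, 41589 replicate 1 and SOM replicate 1, at 14.1 CPM of H19 and 8.06 CPM of Plagl1 or more. The other 8 libraries had at most 5.97 CPM of H19 and 1.64 CPM of Plagl1. Because the libraries fall into separate clusters, no correlation over all 12 is given for this pair. Its Pearson's r ranked highest of all pairs of members, and neither the pair nor the cut at 4 libraries was planned. The match is therefore a description and not a test.

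**Figure D3:**
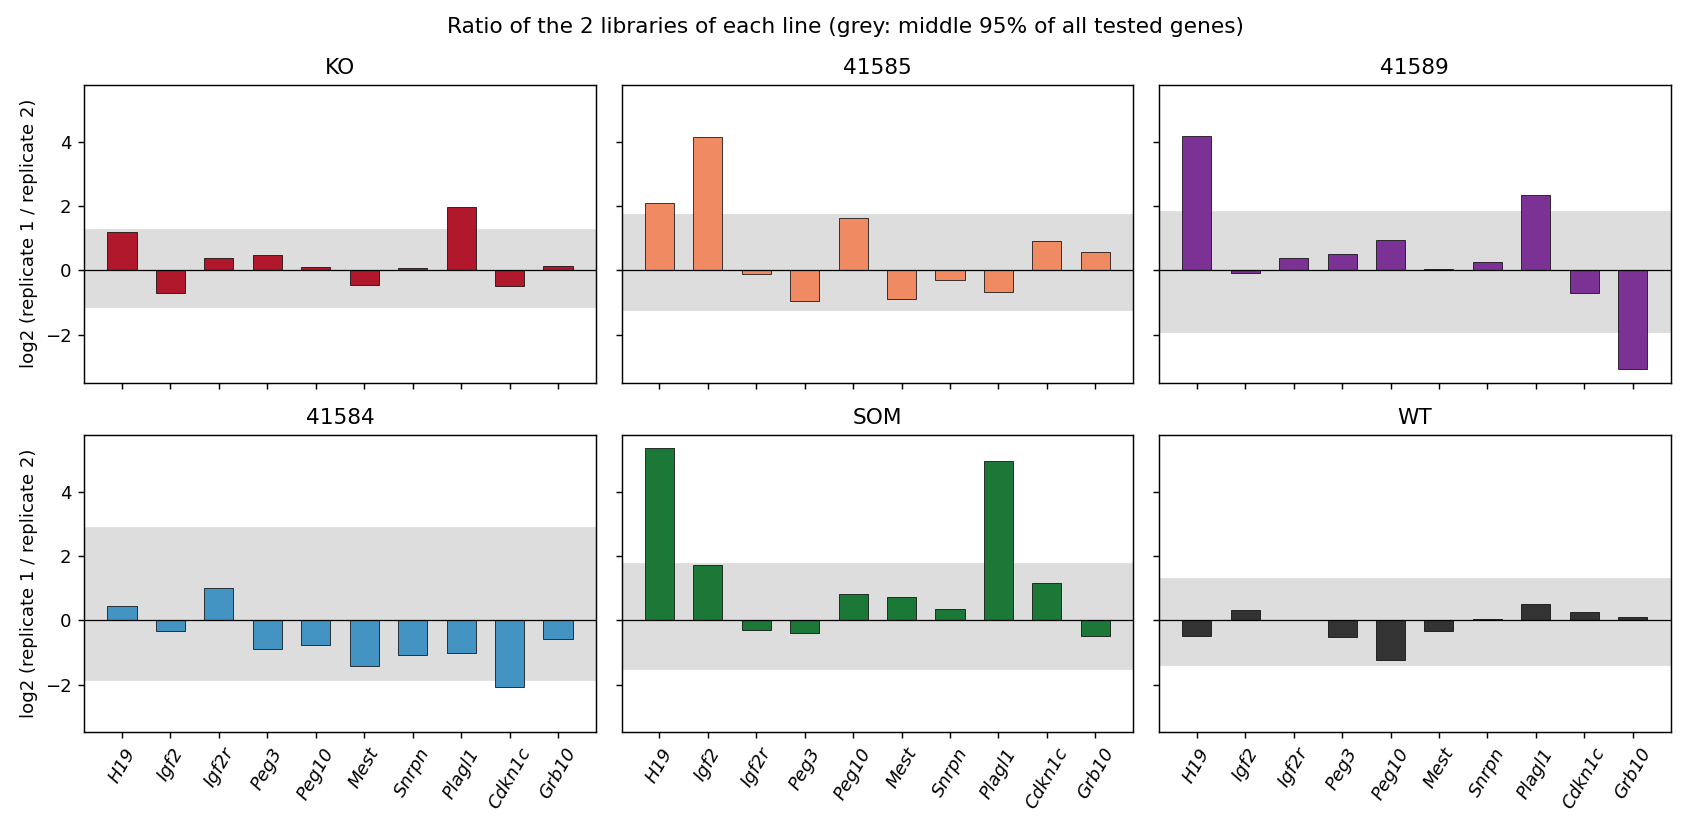
Log2 ratio of replicate 1 over replicate 2 for each gene in each line, as bars from 0, with the range of the middle 95% of all tested genes in grey. H19 leaves the grey range in 41585, 41589 and SOM, Igf2 in 41585, Plagl1 in KO, 41589 and SOM, Grb10 in 41589, and Cdkn1c in 41584.

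Igf2 was 17.9-fold higher in replicate 1 than in replicate 2 of 41585 (interval 9.54 to 37.9), where H19 was higher as well. In 41585, 0.123% of tested genes were as far apart as Igf2. In SOM its ratio was 3.28 (1.60 to 7.42). The 2 libraries of KO, where Igf2 was highest, had a smaller spread and replicate 2 was the higher of them. The sum of the trophectoderm markers also differed within 41585, with 337 CPM in replicate 1 and 112 CPM in replicate 2, and its part in the Igf2 ratio was not tested.

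Grb10 was 8.39-fold lower in replicate 1 of 41589 than in replicate 2, at 404 and 3970 reads. That gap exceeded those of all but 0.861% of tested genes in this line, and the median log2 ratio of its 5 tested neighbours within 1 Mb was 0.22, beside −3.07 for Grb10. Cdkn1c, an inhibitor of cyclin-dependent kinases, ran the same way in 41584, with 5.36 CPM in replicate 1 and 22.5 CPM in replicate 2, and in SOM it had 19.5 and 8.63 CPM. Its order over lines was SOM, 41584, 41589, KO, WT, 41585, and only WT and 41585 did not overlap. Mest and Snrpn were over 2-fold apart in 41584 alone, by 2.68 and 2.13. Peg10 differed by 3.10 in 41585 and 2.34 in WT. In 41585 the 9 tested genes within 1 Mb of Peg10 had a median log2 ratio of 0.97, beside 1.63 for Peg10.

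Peg3 was the only member whose ratio stayed under 2-fold in every line, at most 1.92 in 41585, though its median ratio over lines, 1.43, was above those of Snrpn (1.22) and Igf2r (1.27). For Peg3 the libraries of neighbouring lines overlapped at all 5 steps of its order, 41585, KO, 41589, WT, SOM, 41584. Mest ran SOM, 41584, 41589, 41585, KO, WT, and 41585 and KO were the only neighbours that did not overlap. It had 36.8 and 50.4 CPM in KO libraries, 56.3 and 104 CPM in 41585 libraries and 85.3 and 82.9 CPM in 41589 libraries. Snrpn ran SOM, 41584, 41589, KO, WT, 41585, with 53.2 and 50.6 CPM in KO libraries, and its KO and WT libraries did not overlap. Plagl1 ran 41585, SOM, 41589, 41584, WT, KO, with a gap only between 41589 (8.43 and 1.64 CPM) and 41584. H19 ran 41585, SOM, 41589, 41584, KO, WT, and only KO and WT did not overlap.

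Promoter sequence is shown for Plagl1 and Grb10 because they varied most between replicates of a line among the members with a RefSeq promoter entry, apart from Igf2, and because methylation at CG dinucleotides is what carries an imprint. Windows of 300 bases, 250 before to 50 after a start, were used for 7 of 10 members, and those of H19, Peg10 and Cdkn1c were not used here. The median of 32851 promoters held 7 CG, a motif that reads alike on both strands. The Plagl1 window (chr10:13090582-13090881, plus strand) held 26 CG, and 16.9% of promoters held as many or more. Grb10 has 2 windows: the one shown (chr11:12037371-12037670, minus strand) held 45 CG, reached by 1.93% of promoters, and the other held 9. Whether the windows shown lie in the regions that carry the imprints of these genes was not examined. Capitals mark CG, and these libraries hold no methylation measurement.
Plagl1 promoter: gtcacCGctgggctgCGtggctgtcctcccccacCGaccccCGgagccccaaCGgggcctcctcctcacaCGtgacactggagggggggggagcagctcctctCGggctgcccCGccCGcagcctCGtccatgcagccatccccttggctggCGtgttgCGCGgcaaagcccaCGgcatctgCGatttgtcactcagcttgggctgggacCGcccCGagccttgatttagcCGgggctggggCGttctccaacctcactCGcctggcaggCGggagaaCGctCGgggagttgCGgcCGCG
Grb10 promoter: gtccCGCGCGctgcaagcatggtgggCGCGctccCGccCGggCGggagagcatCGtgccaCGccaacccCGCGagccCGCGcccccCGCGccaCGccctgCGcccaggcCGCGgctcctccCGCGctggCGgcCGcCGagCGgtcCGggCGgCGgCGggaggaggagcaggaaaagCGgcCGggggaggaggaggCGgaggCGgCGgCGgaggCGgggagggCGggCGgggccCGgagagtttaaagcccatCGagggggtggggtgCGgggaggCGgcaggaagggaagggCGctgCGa

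Over the 12 libraries, which are 2 from each of 6 lines and so not fully independent, Igf2r and Peg10 ran in opposite directions. Their log2 CPM correlated at Pearson's r = −0.79 and Spearman's rho = −0.87, and at r = −0.75 without the 2 libraries farthest from the median of Igf2r. This was the most negative r of all pairs of members. Both genes were already called in opposite directions between KO and WT, so the correlation is not separate evidence. KO libraries had the least Igf2r and the most Peg10, and WT replicate 1, with 193 CPM of Igf2r, had the least Peg10. The pair H19 and Igf2 had r = 0.18 (rho = 0.32), and −0.11 without the 2 farthest libraries.

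**Figure D4:**
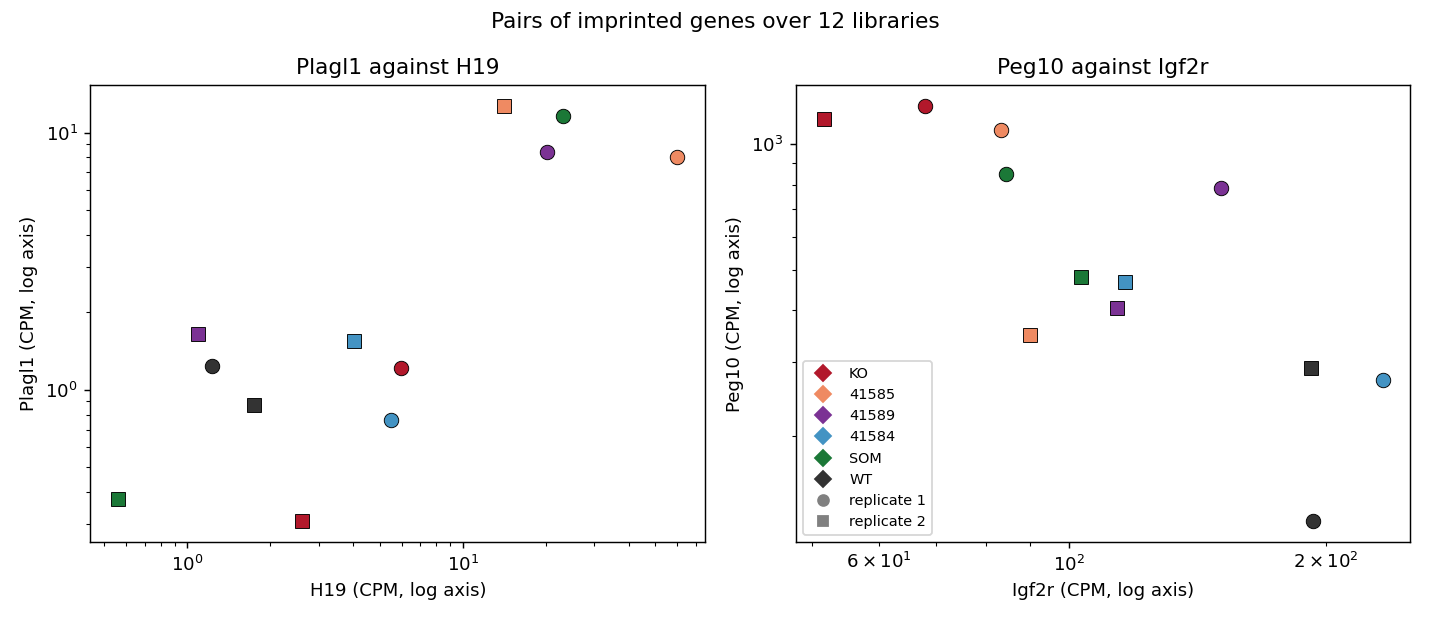
Plagl1 against H19 and Peg10 against Igf2r, both in CPM on log axes, with 1 point per library, coloured by line and shaped by replicate. In the left panel 4 libraries lie apart at 14.1 CPM or more of H19, and in the right panel the KO libraries lie at upper left and the WT libraries at lower right.

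Among 10456 genes with a mean of at least 5 CPM, those most like H19 over the 12 libraries were Rcsd1 (r = 0.91), Zscan4d (0.88), Gm21761 (0.86), Gm20767 (0.85) and Mrpl22 (0.85). Without the 2 libraries farthest from the H19 median, these r values lay between 0.74 and 0.82. Zscan4d, of a family of zinc finger genes expressed in the 2-cell embryo and in passing states of stem cells, had 50.8 and 38.8 CPM in 41585 libraries, 25.6 and 3.37 CPM in 41589 libraries and 18.1 and 3.0 CPM in SOM libraries. Like H19, it was higher in replicate 1 of those lines, but it was chosen by its correlation with H19, so this is not separate evidence. Zscan4 genes have near-identical copies, so how reads were shared among them is uncertain.

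The genes most like Igf2 were Pard6b (r = 0.90), Serpinb6a (0.90), Eid2 (0.89), Limch1 (0.87) and Ptpn9 (0.87). These values lean on the KO libraries, which stand apart for Igf2: without the 2 libraries farthest from its median r lay between 0.60 and 0.71. Pard6b, a cell polarity gene, had 27.5 and 32.1 CPM in KO libraries and 15.7 and 15.3 CPM in WT libraries. In 41585 libraries, where Igf2 also split, Pard6b had 26.4 and 17.2 CPM. It was chosen by its correlation with Igf2, so this is not separate evidence.

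Neighbours of the members, other imprinted genes and genes of the same pathways were taken from lists chosen by function and position. Their counts stand beside 13.2% of all tested genes called in KO against WT (7.29% higher, 5.9% lower) and 12.7% in 41585 against 41584 (7.65% higher, 5.07% lower). Of 11 tested genes of the H19-Igf2 and Kcnq1 domains on chromosome 7, 2 were higher in KO than in WT by edgeR and 0 lower. The list's median log2 fold was −0.24, beside −0.0003 over all tested genes. Tspan32, a tetraspanin gene, had 11.7 and 7.68 CPM in KO libraries and 1.23 and 0.983 CPM in WT libraries (3.12 ± 0.52, edgeR adjusted p = 0.00355). It was called with any of the 4 libraries left out. In 41585 against 41584 its fold was 2.13 ± 0.50 (edgeR adjusted p = 0.0183), a call lost without 41585 replicate 1, 41585 replicate 2 or 41584 replicate 2 (up to 0.109).

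Kcnq1ot1, the paternal non-coding RNA that silences the Kcnq1 domain in which Cdkn1c lies, had 43.7 and 37.7 CPM in KO libraries and 12.8 and 10.5 CPM in WT libraries (1.81 ± 0.51, edgeR adjusted p = 0.0353). That call was lost without any of the 4 libraries (0.0977 to 0.182), and Kcnq1ot1 runs antisense to Kcnq1, so its reads are uncertain. Cdkn1c had 7.67 and 10.8 CPM in KO libraries and 9.72 and 8.08 CPM in WT libraries, a log2 fold of 0.05 ± 0.61. In 41585 against 41584, Tspan32 was higher and Tnfrsf23 lower (−2.36 ± 0.66, adjusted p = 0.0373), 1 gene each way. The Tnfrsf23 call was lost without the same 3 libraries as that of Tspan32 (up to 0.182).

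Of 3 tested genes beside Grb10, Ddc, which encodes aromatic amino acid decarboxylase, was higher in KO: it had 49.7 and 70.5 CPM in KO libraries and 3.86 and 8.63 CPM in WT libraries (3.24 ± 0.63, edgeR adjusted p = 0.00789; 0.0972 without WT replicate 1). Grb10 itself was not called and had a negative fold there. In 41585 against 41584, Fignl1 was lower by edgeR (−0.85 ± 0.25, adjusted p = 0.0452). That call was lost without 41585 replicate 1, 41585 replicate 2 or 41584 replicate 2 (up to 0.2), when the lowest fold in size was −0.57. No tested neighbour of Peg3 (3 genes), Peg10 (5), Mest (1), Snrpn (7) or Plagl1 (5) was called in KO against WT or in 41585 against 41584, and of the Igf2r neighbours none was tested.

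Of 12 tested genes of the insulin-like growth factor axis, 1 was higher and 2 lower in KO than in WT by edgeR, beside 13.2% of all tested genes called. Insr, the insulin receptor, which also binds IGF2, had 11.3 and 13.4 CPM in KO libraries and 54.6 and 47.2 CPM in WT libraries (−2.04 ± 0.43, edgeR adjusted p = 0.0111). Without KO replicate 1, KO replicate 2 or WT replicate 1 that call was lost (up to 0.124). The receptor substrate gene Irs1 (−2.54 ± 0.70) was lower and the binding protein gene Igfbp7 (1.94 ± 0.55) higher, and both lost their call when any of the 4 libraries was left out. Irs1 had 4.48 and 2.84 CPM in WT libraries, 0.609 and 0.615 CPM in KO libraries and 1.02 and 0.310 CPM in 41584 libraries. Its log2 fold against WT was also −2.38 ± 0.69 in 41584 and −2.97 ± 0.76 in SOM, neither of them called. In 41585 against 41584 the only call was Igf2bp2, which encodes a protein that binds Igf2 mRNA (1.04 ± 0.24, edgeR adjusted p = 0.0182). Its call remained in 1 of the 4 fits that left a library out. The list's median fold was −0.64 in KO against WT and −0.08 in 41585 against 41584, beside −0.0003 and −0.01 over all tested genes.

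Of 14 tested genes that maintain or write imprints, 2 were higher and 1 lower in KO than in WT, beside 13.2% of all tested genes called. Ehmt2, a histone H3 lysine methyltransferase, had 97.4 and 81.2 CPM in KO libraries and 12.2 and 29.3 CPM in WT libraries (2.09 ± 0.47, edgeR adjusted p = 0.014; lost without KO replicate 1 or WT replicate 1, up to 0.143). The DNA methyltransferase gene Dnmt3b was higher (1.80 ± 0.43) and Zfp445, a zinc finger protein that protects imprints, was lower (−1.03 ± 0.30), each lost with any library left out. In 41585 against 41584, Ehmt2 (2.26 ± 0.46) and Dppa3 (2.16 ± 0.62) were higher, and Zfp445 (−1.22 ± 0.30) and Tet1 (−1.23 ± 0.36) lower. Of these, Ehmt2 was lost without 41585 replicate 1 alone (adjusted p = 0.0505), and the others without 3 or 4 of the 4 libraries. Dppa3 is known to shield methylated imprints in the early embryo, and Tet1 oxidises methylated cytosine. Dppa3 had 5.49 and 14.6 CPM in 41585 libraries, 2.30 and 2.17 CPM in 41584 libraries and 7.10 and 8.41 CPM in WT libraries.

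Among 19 other tested imprinted genes, Mcts2 was higher (1.38 ± 0.35) and Inpp5f lower (−1.10 ± 0.28) in KO than in WT by edgeR. Both lost their call with any library left out. Against WT, Mcts2 also had log2 folds of 1.60 ± 0.35 in SOM and 0.87 ± 0.35 in 41584. Those of Inpp5f were −0.95 ± 0.28 in SOM and −0.43 ± 0.28 in 41584, and neither gene was called in these lines. In 41585 against 41584 Impact was higher (1.26 ± 0.35) and no other was called; without 41585 replicate 1, 41585 replicate 2 or 41584 replicate 1 that call was lost (adjusted p up to 0.229, lowest fold 0.82). The medians were −0.07 in KO against WT and 0.31 in 41585 against 41584. With KO and 41585 against WT, 41584 and 41589, calls were 3 higher and 3 lower among these 19, against 33.5% of all genes. In that comparison Tspan32 (2.36 ± 0.31), Ddc (2.03 ± 0.37), Insr (−1.50 ± 0.28), Ehmt2 (1.89 ± 0.29) and Zfp445 (−1.03 ± 0.20) were called with any of the 10 libraries left out.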

How the data were processed

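Poly(A) RNA libraries made with a reverse-stranded TruSeq kit, per the labels' protocols, were read on a HiSeq2000, 2 per group. Per the submitters' processing notes, reads were aligned with STAR 2.4.2a to mm10 (GRCm38); no source used here names the counting program or annotation. The authors deposited raw counts as whole numbers. GENCODE M21 gave a symbol to 47224 of 47643 genes. Exon lengths are unions of its exons.

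The test was edgeR's robust quasi-likelihood test (version 4.0.16, R 4.3.3) after filterByExpr and TMM scaling, with 1 mean per group over all 12 libraries and 6 residual degrees of freedom, with Benjamini-Hochberg adjustment over all 14629 tested genes and calls under 0.05. CPM are reads over the library total times its TMM factor (0.904 to 1.08). Intervals of replicate ratios are exact 95% binomial intervals and cover counting error only, as reads carry no molecular identifiers. Correlations used log2 CPM with a prior count of 2. The tests were tested on simulated data. Alternatives were DESeq2 1.42.0, relative log expression scaling, no filter on low counts, a replicate block, only the groups compared, and each library left out; a spline correction for GC content and length was added after seeing the data.

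The members, gene lists and comparisons were chosen with earlier results of these data known. All 10 members are named in every comparison, plus, of each list's 4 tested genes with the smallest adjusted p in a comparison, those called in KO against WT or 41585 against 41584, and the 5 genes of at least 5 CPM most correlated with H19 and with Igf2. Pard6b and Zscan4d were picked from those for their values per library, and the marker genes, after their values were seen.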

Additional observations from a re-analysis of the deposited data

How the results depend on the processing

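The number of members called moved with the processing. For KO against WT it was 3, but 4 with no filter on low counts, 5 with only the groups compared and fewer than 3 with a library left out. For 41585 against 41584 it was 2, but 4 with DESeq2, 6 with no filter on low counts, 1 with only the groups compared, and 0 to 2 with a library left out. For SOM against WT it was 0, but 2 with DESeq2, 5 with no filter and 4 with only the groups compared. For 41589 against 41584 it was 0 to 1 with a library left out, for KO and 41585 against WT, 41584 and 41589 it was 4, but 3 to 6 with a library left out, and for 41584 against WT it was 0 under every alternative run. With no filter, 6 members were called for KO and 41585 against WT, 41584 and 41589. The cause of these shifts was not tested. For SOM against WT the log2 fold ran from −1.40 to 3.92 for H19 and from −1.43 to 3.47 for Plagl1 with a library left out, negative without SOM replicate 1. Calls over all genes were 1929 for KO against WT (4892 with only the groups compared, 2950 with no filter, 237 to 606 with a library left out) and 1861 for 41585 against 41584 (403, 3073 and 348 to 1820). For SOM against WT they were 0, but 662 with DESeq2, 1345 with no filter and 2035 with only the groups compared, and for 41584 against WT 0, but 27, 132 with no filter and 106 without 41584 replicate 1. Replicate numbers were not treated as pairing the libraries, since the replicate differences of 15 pairs of groups correlated at −0.083 to 0.508 and 5, not all, exceeded 0.1: 41585, 41584 and SOM with each other, and 41589 with WT and 41584. With a replicate block the members called were 3 in KO against WT, 3 in 41585 against 41584, 4 in the comparison of both these lines with the other 3, and 0 elsewhere; Plagl1 was called in 41585 against 41584 (3.30, adjusted p = 0.0441). Correcting for GC content and length ended the call of Grb10 in 41585 against 41584 (adjusted p = 0.0649) and made one of Peg3 (0.0283). H19 and Plagl1 rest on 2 to 135 reads in the SOM and WT libraries, which limits their folds there.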
